A study of Rattus norvegicus with 18 samples.

Results

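The miR-29 family was followed as its 6 mature strands in the table, chosen by name from 599 rat miRNAs: rno-miR-29a-3p, rno-miR-29b-3p and rno-miR-29c-3p, the guide strands, and rno-miR-29a-5p, rno-miR-29b-5p and rno-miR-29c-5p, the passengers. All 6 were read in every library. The study profiled small RNA of the heart in SHR that received QDG (labelled QDG), in SHR of the hypertension group (labelled SHR) and in WKY rats of the normal group (labelled WKY), with 6 libraries a group. SHR, the spontaneously hypertensive rat, is an inbred strain that develops high blood pressure, and WKY, the Wistar Kyoto rat, is the normotensive strain it is usually set against. The design text says that SHR were given either NS or QDG and spells out neither name. The sources used here state no age, dose or duration. SHR and WKY differ in strain, blood pressure and possibly handling, and these cannot be told apart. The labels do not tie each library to a rat of its own, so p-values describe the spread between libraries, which may be technical in part.

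miR-29 miRNAs are best known in the heart as brakes on the extracellular matrix. Their guide strands, the 3p arms, pair through a shared seed with messages of collagens, elastin and fibrillin, and cardiac fibroblasts carry much of this activity in rodents. The 5p arms are the passenger strands of the same hairpins and are usually degraded. The family comes from a pair of loci, each with 2 hairpins, and the guide strand of miR-29b is made at both.

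The guide strands are shown for the seed that they share and the bases in which they differ, written 5′ to 3′ as in RefSeq (GRCr8), with the seed, bases 2 to 8, in capitals.
rno-miR-29a-3p: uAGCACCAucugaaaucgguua
rno-miR-29b-3p: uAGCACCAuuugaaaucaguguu
rno-miR-29c-3p: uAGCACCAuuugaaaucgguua
All 3 hold the seed AGCACCA. None of the other miRNAs in the table that matched RefSeq by name (543 of 599 matched, members included) had it. Counted from the 5′ end, miR-29a-3p differs from miR-29c-3p by a single change, C10U, and from miR-29b-3p by C10U, G18A, U21G and A22U, with 1 further base at the miR-29b-3p end. miR-29b-3p ends in AGUGUU, letters known from human cells to send it to the nucleus, and it was the only 1 of the 543 matched miRNAs (0.184%) with that ending.

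The passenger strands have 3 different seeds, and no other matched miRNA in the table held any of them.
rno-miR-29a-5p: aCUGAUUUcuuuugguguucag
rno-miR-29b-5p: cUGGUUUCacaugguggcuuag
rno-miR-29c-5p: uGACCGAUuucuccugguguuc
The pair of miR-29b hairpins is shown with the mature arms in capitals because both yield the same guide strand and differ in the passenger.
Mir29b1, GRCr8 chr4:60618334-60618414, minus strand: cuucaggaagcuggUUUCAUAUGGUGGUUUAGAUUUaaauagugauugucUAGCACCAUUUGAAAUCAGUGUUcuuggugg
Mir29b2, GRCr8 chr13:109098831-109098911, plus strand: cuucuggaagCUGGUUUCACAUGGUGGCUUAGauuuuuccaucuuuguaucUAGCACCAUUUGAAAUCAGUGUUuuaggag
Mir29a lies 291 bases from Mir29b1 on the minus strand of chromosome 4, and Mir29c lies 447 bases from Mir29b2 on the plus strand of chromosome 13. The row miR-29b-5p carries the arm of Mir29b2, and the 5p arm of Mir29b1 was not analysed here. Reads of miR-29b-3p therefore cannot be divided between the loci. The sources used here do not say how reads fitting several miRNAs were counted, so reads of miR-29a-3p and miR-29c-3p may be shared.

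Levels are the deposited normalized read counts, given as reads per 1000000 (RPM) of a divisor that the authors set per library, in which 1 read was worth 0.135 to 0.225 RPM. Reads summed over all listed miRNAs were 6805472 to 8574447 in QDG libraries, 6420666 to 10169581 in SHR libraries and 6465025 to 9463554 in WKY libraries. These sums exceeded the divisor in every library (divisors 4449279 to 7403775), and a read fitting several miRNAs may be counted more than once. On the first principal component, 29.9% of the variance, QDG and SHR libraries lay together and WKY libraries apart. SHR replicate 5 stood alone on the second component and WKY replicate 1 on the third. WKY replicate 1 had 33.1% of its reads in miR-1b and the lowest WKY value of all 6 miR-29 strands. QDG replicate 4 had the lowest value of its group in all 3 miR-29 guide strands. Values without these libraries stand beside the results that they change.

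miR-29a-3p carried nearly the whole family. It made up 94.9% of the summed reads of the 6 strands in QDG, 95.1% in SHR and 94.2% in WKY, and ranked 21st by mean level among the 599 miRNAs in each group. The sum averaged 14867 ± 1993 RPM in QDG, 14995 ± 1069 RPM in SHR and 16064 ± 2147 RPM in WKY (SD, n = 6 each), with overlapping ranges. In all 18 libraries the order was miR-29a-3p, miR-29b-3p, miR-29c-3p, miR-29c-5p and then the remaining passengers. miR-29b-5p stood above miR-29a-5p in 16 of 18 libraries, the exceptions being SHR replicate 5 and QDG replicate 4. Efficiency of adapter ligation differs between small RNAs, so the order of levels is one of reads.

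**Figure D1:**
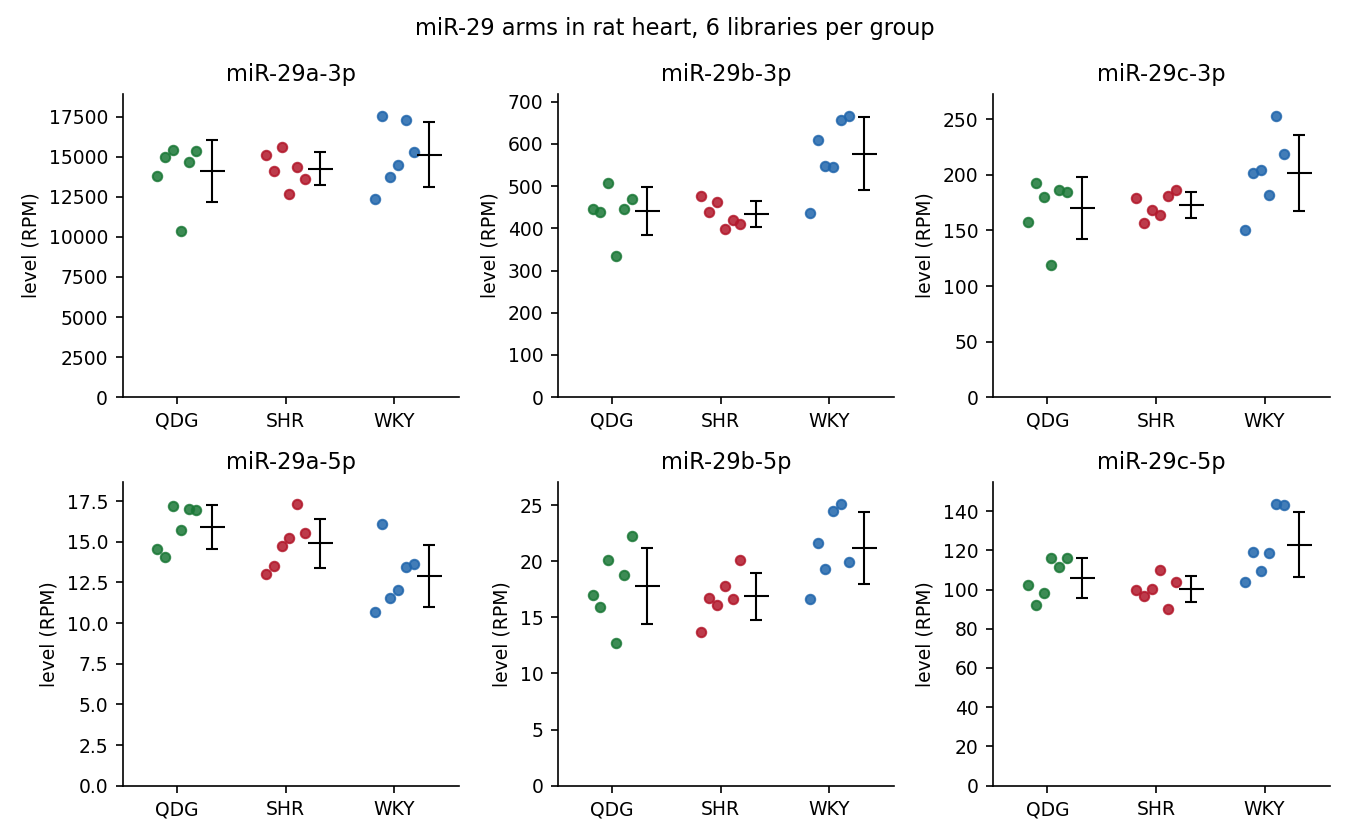
Level of each miR-29 arm (RPM, linear axes from 0) in the 6 QDG, 6 SHR and 6 WKY libraries; points are libraries, and the bar with caps is the mean ± SD. miR-29b-3p sits between 335 and 507 RPM in QDG and between 398 and 476 RPM in SHR, while 5 of 6 WKY libraries lie between 545 and 666 RPM and WKY replicate 1 at 436 RPM.

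Among the guide strands, miR-29b-3p was lower in SHR than in WKY hearts, and the other guides did not pass the test. The lowest, median and highest levels of rno-miR-29b-3p were 398, 428 and 476 RPM in SHR, against 436, 579 and 666 RPM in WKY. The groups overlapped through WKY replicate 1, which lay below 3 of the SHR libraries, whereas the other 5 WKY libraries lay above all 6 SHR libraries. The log2 fold change was -0.40 ± 0.11 (SE; limma, adjusted p = 0.00711), a level 0.758 times that of WKY (95% interval 0.651 to 0.883), with 6 of 6 SHR libraries below the WKY mean. Without WKY replicate 1 it was -0.48 (limma adjusted p = 0.000628), and without both WKY replicate 1 and SHR replicate 5, a choice made after seeing the data, -0.47 (limma adjusted p = 0.00174). The adjusted p stayed between 0.000252 and 0.025 over all 35 alternatives run. In tissue, fewer cells carrying a miRNA and less of it per cell cannot be told apart.

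rno-miR-29a-3p, the most abundant strand, had 12692, 14230.1 and 15615 RPM in SHR, against 12346, 14917 and 17546 RPM in WKY (lowest, median, highest). All 6 SHR libraries lay inside the WKY range. Its log2 fold change was -0.08 ± 0.10 (95% interval -0.28 to 0.12; limma adjusted p = 0.624), and upper quartile scaling turned the sign to 0.02. Without WKY replicate 1 it was -0.13 (limma adjusted p = 0.333). rno-miR-29c-3p, which differs from it by 1 base, had 157, 174 and 187 RPM in SHR, against 151, 203 and 253 RPM in WKY. The SHR libraries again fell within the WKY range, though 6 of 6 were below the WKY mean, with a log2 fold change of -0.21 ± 0.12 (95% interval -0.45 to 0.04; limma adjusted p = 0.237). miR-29c-3p passed the threshold once in 35 alternatives, with WKY replicate 1, SHR replicate 5 and QDG replicate 4 all left out (limma adjusted p = 0.0178).

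Of the passengers, rno-miR-29c-5p was lower in SHR than in WKY, but not firmly. Its lowest, median and highest levels were 90.1, 100.1 and 109.8 RPM in SHR, against 104, 119 and 143 RPM in WKY. SHR replicate 4 alone reached into the WKY range. The log2 fold change was -0.29 ± 0.10 (limma adjusted p = 0.0373), with 6 of 6 SHR libraries below the WKY mean. This call held in 20 of 35 alternatives, among them the fits without a single QDG library, which leave this fold change as it is. Leaving out any of WKY replicates 2, 5 and 6 or of SHR replicates 1, 2, 3 and 5 lost it (limma adjusted p = 0.0505 to 0.103), as did 4 of 5 scalings, with upper quartile scaling giving -0.19 (limma adjusted p = 0.162).

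miR-29b-5p, the passenger of Mir29b2, had 13.7, 16.7 and 20.1 RPM in SHR, against 16.6, 20.8 and 25.0 RPM in WKY, from 61 to 149 reads per SHR library and 92 to 118 per WKY library. Its log2 fold change of -0.31 ± 0.14 missed the threshold (limma adjusted p = 0.106) and passed it without WKY replicate 1 (-0.37, limma adjusted p = 0.042). miR-29a-5p went the other way in value, with 13.0, 14.99 and 17.3 RPM in SHR, against 10.7, 12.7 and 16.1 RPM in WKY. The ranges overlapped, and the log2 fold change of 0.20 ± 0.12 did not pass (limma adjusted p = 0.27; 0.15 on the log2 scale without WKY replicate 1). Its 58 to 115 reads per library leave counting error as a sizeable part of each value.

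In count, 2 of 6 strands were called lower and 0 higher in SHR against WKY. Over the whole table limma called 23.2% of 410 miRNAs in this comparison, 62 lower (15.1%) and 33 higher (8.05%), a split that became 47 lower and 46 higher under RLE scaling and 38 lower and 49 higher under upper quartile scaling. The median log2 fold change was -0.25 over the 6 members and -0.07 over all 410. No member separated the groups fully, as did 28 of 410 miRNAs (6.83%) in the lower and 14 (3.41%) in the higher direction. A count of 2 in 6 does not set the family apart from this background.

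**Figure D2:**
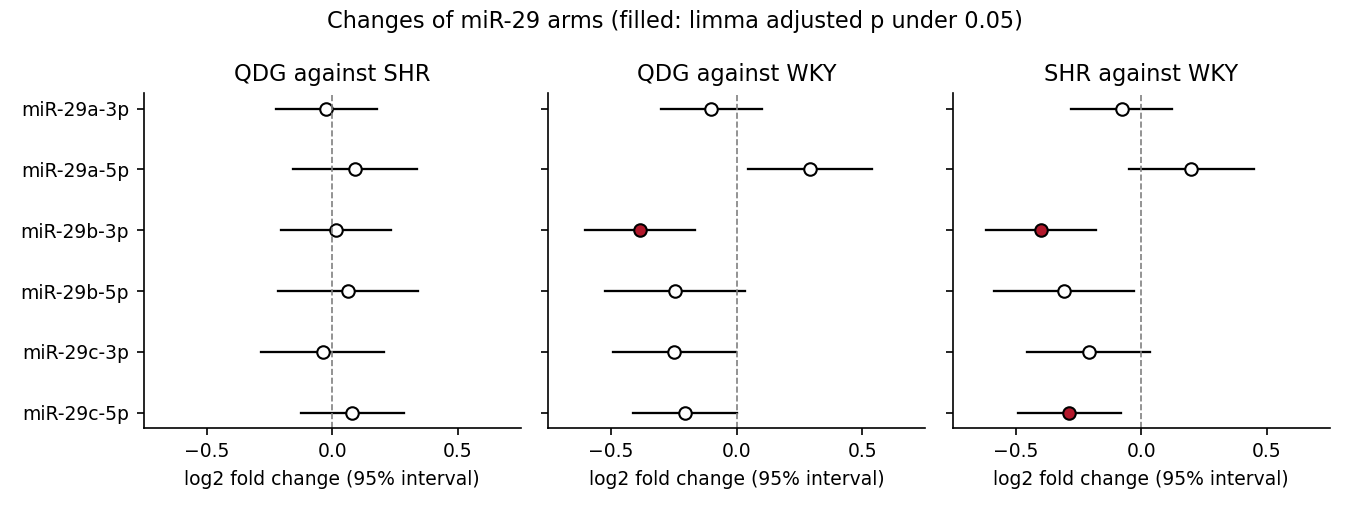
Log2 fold change of each miR-29 arm (x axis, on log2(RPM + 1)) in QDG against SHR, QDG against WKY and SHR against WKY, with its 95% interval as a line; filled points have a limma adjusted p under 0.05. miR-29b-3p is filled in both comparisons with WKY (-0.39 and -0.40), miR-29c-5p in SHR against WKY alone, and no point is filled in QDG against SHR.

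No miR-29 strand differed detectably between QDG and SHR hearts. miR-29b-3p had 335, 445 and 507 RPM in QDG, against 398, 428 and 476 RPM in SHR (lowest, median, highest). QDG replicate 4 lay below and QDG replicate 3 above the whole SHR range. The log2 fold change was 0.01 ± 0.11 (95% interval -0.21 to 0.23; limma adjusted p = 0.983). It was 0.09 without QDG replicate 4. The interval reaches neither to the point estimate of the SHR difference from WKY, -0.40 on the log2 scale, nor to its mirror image. That difference has a 95% interval of its own, -0.62 to -0.18, and both this and its mirror image overlap the interval of QDG against SHR.

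miR-29a-3p had 10399.6, 14852 and 15420.2 RPM in QDG, against 12692, 14230.1 and 15615 RPM in SHR. QDG replicate 4 supplied the low end and the other 5 QDG libraries lay within the SHR range. Its log2 fold change was -0.02 ± 0.10 (95% interval -0.22 to 0.18; limma adjusted p = 0.983). miR-29c-3p had 119, 182 and 192 RPM in QDG, against 157, 174 and 187 RPM in SHR, and a log2 fold change of -0.04 ± 0.12 (95% interval -0.28 to 0.21; limma adjusted p = 0.983). Without QDG replicate 4 both values had the opposite sign, 0.06 for each guide.

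For the passengers the QDG against SHR log2 fold changes were 0.09 ± 0.12 for miR-29a-5p, 0.06 ± 0.14 for miR-29b-5p and 0.08 ± 0.10 for miR-29c-5p (limma adjusted p = 0.983 for each). Without QDG replicate 4, which had the lowest miR-29b-5p level of its group, the value of miR-29b-5p was 0.15, and that of miR-29c-5p 0.05. miR-29c-5p had 92.0, 107 and 116 RPM in QDG, with 3 of 6 libraries above the highest SHR library at 109.8 RPM. Across all 410 miRNAs, limma called 0 (0.0%) between QDG and SHR, with 15 at an unadjusted p under 0.05. edgeR, DESeq2 and limma-voom on the recovered reads called 0 as well, with 18, 20 and 18 at an unadjusted p under 0.05. The smallest unadjusted limma p among the members was 0.436.

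Set against WKY, QDG hearts also had less miR-29b-3p. The levels were 335, 445 and 507 RPM in QDG, against 436, 579 and 666 RPM in WKY. As with SHR, the overlap came from WKY replicate 1, and the other 5 WKY libraries exceeded all 6 QDG libraries. The log2 fold change was -0.39 ± 0.11 (limma adjusted p = 0.0102), a level 0.766 times that of WKY (95% interval 0.658 to 0.891), with 6 of 6 QDG libraries below the WKY mean. It was -0.46 without WKY replicate 1 and -0.31 without QDG replicate 4 (limma adjusted p = 0.00119 and 0.0316), and the adjusted p ranged from 0.000812 to 0.0362 over 35 alternatives. This comparison shares its WKY libraries with SHR against WKY, so the pair of miR-29b-3p results is not independent.

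The other members did not pass in QDG against WKY. miR-29a-3p had -0.10 ± 0.10 on the log2 scale (limma adjusted p = 0.525; 0.01 under upper quartile scaling), miR-29c-3p -0.25 ± 0.12 (0.155), miR-29b-5p -0.25 ± 0.14 (0.229) and miR-29c-5p -0.21 ± 0.10 (0.158). miR-29c-3p passed without WKY replicate 1 (-0.33, limma adjusted p = 0.0379) and had -0.15 without QDG replicate 4. miR-29a-3p had -0.16 without WKY replicate 1 and -0.02 without QDG replicate 4, and miR-29b-5p -0.31 and -0.16 (none with a limma adjusted p under 0.05). miR-29a-5p had 14.0, 16.3 and 17.2 RPM in QDG, against 10.7, 12.7 and 16.1 RPM in WKY. 3 QDG libraries lay above all WKY libraries and 6 of 6 above the WKY mean. Its log2 fold change of 0.29 ± 0.12 missed the threshold (limma adjusted p = 0.0977), but passed it as a rise in 8 of 35 alternatives, among them TMM scaling (0.32, limma adjusted p = 0.0301) and edgeR (0.33, adjusted p = 0.0324). Thus 1 of 6 members was called, while over the table limma called 17.8% of 410 miRNAs, 43 lower (10.5%) and 30 higher (7.32%), a split that became 40 lower and 42 higher under RLE scaling and 28 lower and 55 higher under upper quartile scaling. QDG lay fully below WKY for 17 of 410 miRNAs (4.15%) and fully above for 16 (3.9%), and 0 members were among them.

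Ratios within a library do not depend on its scaling, and by this measure miR-29b-3p separated both groups of SHR rats from WKY. For every 100 reads of miR-29a-3p there were 3.13 ± 0.14 reads of miR-29b-3p in QDG, 3.04 ± 0.10 in SHR and 3.82 ± 0.32 in WKY (SD, n = 6 each). The ranges were 2.93 to 3.29 in QDG, 2.91 to 3.14 in SHR and 3.47 to 4.35 in WKY. Neither QDG nor SHR overlapped WKY. WKY replicate 1, low in the level of every guide strand, had a ratio of 3.53, inside the WKY range, and QDG replicate 4 had 3.22, inside the QDG range.

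The ratio was also tested, as an alternative added after seeing the data, by expressing all other kept miRNAs relative to miR-29a-3p and fitting limma over these 409. miR-29b-3p had -0.32 ± 0.08 in SHR against WKY (limma adjusted p = 0.00913), where 28 of 409 miRNAs were called lower (6.85%) and 12 were fully below WKY (2.93%). In QDG against WKY it had -0.28 ± 0.08 (limma adjusted p = 0.0204), beside 20 called lower (4.89%) and 5 fully below WKY (1.22%). Leaving out each library in turn kept the call in 18 of 18 fits for SHR against WKY and in 17 of 18 for QDG against WKY, where it was lost without WKY replicate 6 (limma adjusted p = 0.0635). Between QDG and SHR the difference was 0.04 ± 0.08 (95% interval -0.13 to 0.21; limma adjusted p = 0.995).

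miR-29c-3p did not show the same separation from miR-29a-3p. There were 1.20 ± 0.062 reads of it per 100 of miR-29a-3p in QDG, 1.22 ± 0.11 in SHR and 1.33 ± 0.14 in WKY, with ranges that overlapped throughout. Relative to miR-29a-3p its log2 difference was -0.13 ± 0.10 in SHR against WKY and -0.15 ± 0.10 in QDG against WKY (limma adjusted p = 0.416 and 0.38). Per 100 reads of miR-29b-3p, miR-29c-3p had 38.5 ± 3.7 reads in QDG, 40.0 ± 4.0 in SHR and 35.0 ± 2.4 in WKY. The groups overlapped here too.

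**Figure D3:**
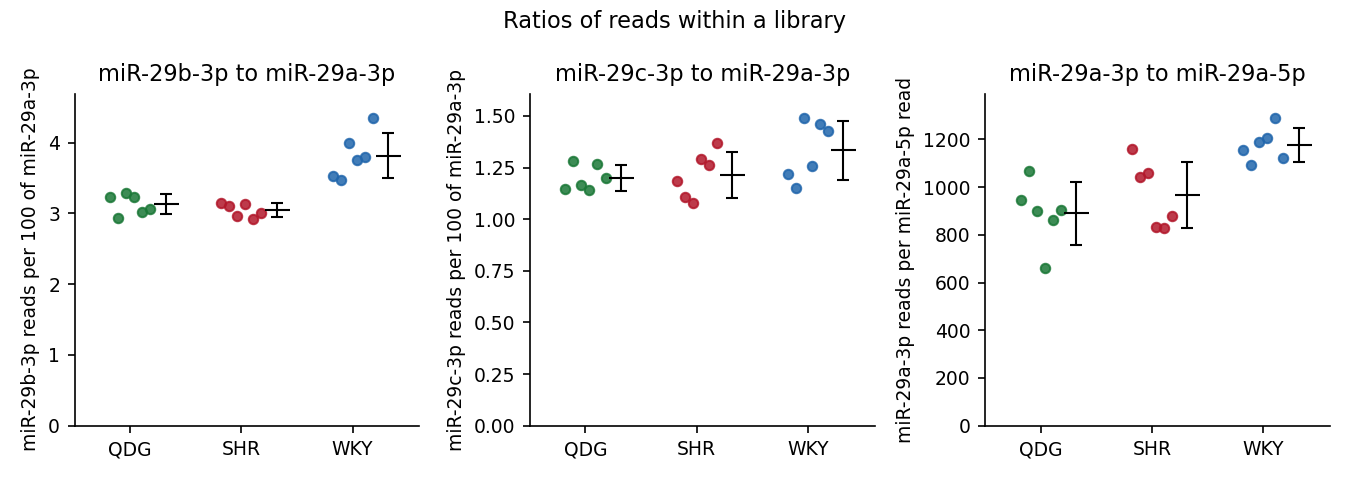
Ratios of reads in each library (linear axes from 0) for QDG, SHR and WKY: miR-29b-3p and miR-29c-3p per 100 reads of miR-29a-3p, and miR-29a-3p reads per miR-29a-5p read; the bar with caps is the mean ± SD of 6 libraries. Every WKY library lies above every QDG and SHR library for miR-29b-3p (lowest WKY 3.47, highest QDG 3.29, highest SHR 3.14), and above every QDG library in the ratio of the miR-29a arms.

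The 3 hairpins differed widely in how far the guide exceeded the passenger. miR-29a-3p had 891 ± 133 reads per read of miR-29a-5p in QDG, 968 ± 139 in SHR and 1176 ± 70 in WKY. Ranks were taken from the median over the 18 libraries of log2(3p + 1) minus log2(5p + 1) in RPM, and not from these plain ratios. By that measure miR-29a ranked 3rd among 126 hairpins with both arms kept. miR-29b ranked 22nd, with plain ratios of 25.1 ± 2.3, 26.2 ± 5.1 and 27.5 ± 3.6 in QDG, SHR and WKY. miR-29c ranked 40th, with 1.62 ± 0.36, 1.73 ± 0.18 and 1.64 ± 0.16. The miR-29b ratio sets the guide of both loci against the passenger of Mir29b2 alone. The guide of miR-29c exceeded its passenger only slightly, by a ratio from 1.02 in QDG replicate 4 to 2.09 in QDG replicate 2. Reads of miR-29a-3p and miR-29c-3p may be shared, which would affect the ratios of both hairpins.

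The miR-29a ratio was lower in value in both groups of SHR rats. It ranged from 663 to 1069 in QDG, from 830.3 to 1161 in SHR and from 1091 to 1289 in WKY. QDG lay fully below WKY, which held for 1 of 125 hairpins in that direction (0.8%), miR-29a itself. In SHR, 5 of 6 libraries lay below all WKY libraries. Over the 126 hairpins the log2 difference was -0.39 ± 0.12 in QDG against WKY (limma adjusted p = 0.154) and -0.28 ± 0.12 in SHR against WKY (limma adjusted p = 0.287), so neither passed. QDG against WKY passed over the 66 hairpins left by a filter of 10 RPM in 6 libraries (limma adjusted p = 0.0387). The fit relative to miR-29a-3p holds the same contrast with its sign turned, as a rise of miR-29a-5p (0.39 ± 0.13). Adjusted over 409 miRNAs it passed there (limma adjusted p = 0.0417), a call kept in 7 of 18 fits with 1 library left out. It is a repeat of 1 contrast and not a further result. In QDG against SHR the difference was -0.12 ± 0.12 (limma adjusted p = 0.987), and -0.03 without QDG replicate 4.

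For miR-29b and miR-29c, the log2 differences of the arm ratio lay between -0.14 and 0.08 in all 3 comparisons, and none passed. Among all 126 hairpins limma called 1 (0.794%) in SHR against WKY, 0 (0.0%) in QDG against SHR with 3 at an unadjusted p under 0.05, and 1 (0.794%) in QDG against WKY. None of these was a miR-29 hairpin. Among the passengers themselves, miR-29a-5p per 100 reads of miR-29b-5p was 91.7 ± 16.4 in QDG, 89.0 ± 9.96 in SHR and 61.6 ± 9.4 in WKY. Both QDG (76.2 to 124) and SHR (77.2 to 104) lay fully above WKY (49.2 to 74.4). Relative to miR-29b-5p, 8.8% of 409 miRNAs lay fully above WKY in QDG and 11.0% in SHR, so this separation is common in the table.

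**Figure D4:**
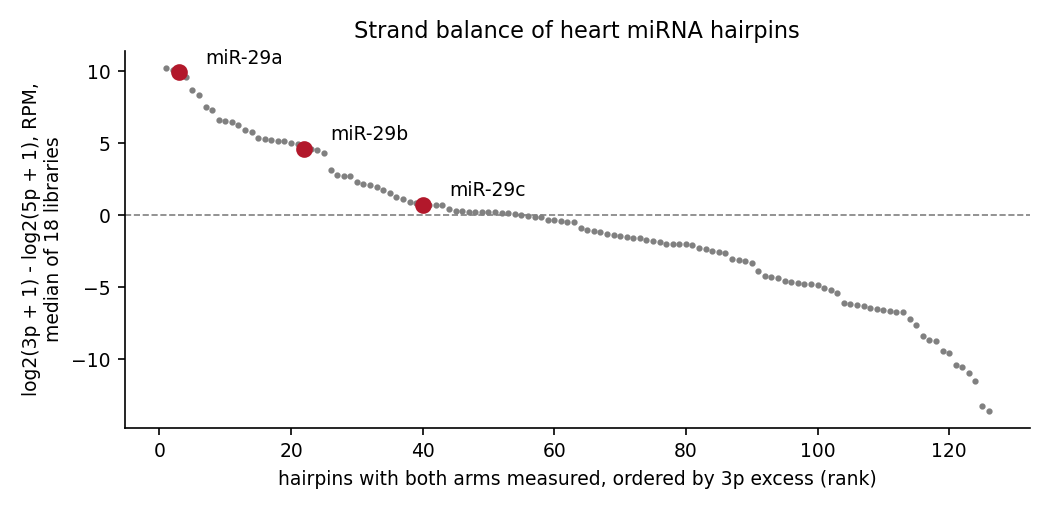
Strand balance of the 126 hairpins with both arms kept, ordered by the median over 18 libraries of log2(3p + 1) minus log2(5p + 1) in RPM (y axis); red points are the miR-29 hairpins. miR-29a ranks 3rd, miR-29b 22nd and miR-29c 40th in excess of the 3p arm.

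Library by library, miR-29a-3p and miR-29b-3p went up and down together within each group. miR-29c-3p had high correlations with them in QDG and WKY but not in SHR. QDG replicate 4 and WKY replicate 1 were each the lowest of their group in all 3 guides and weigh on the correlations of that group. Among the other QDG libraries, replicate 3 had 507 RPM of miR-29b-3p and 180 RPM of miR-29c-3p, and replicate 2 had 440 and 192 RPM. Correlations within QDG or WKY without these lowest libraries were not computed. After the group means of log2(RPM + 1) were taken off, miR-29a-3p and miR-29b-3p had a Pearson r of 0.90 (Spearman 0.83) over the 18 libraries, with 0.95 in QDG, 0.91 in SHR and 0.85 in WKY. For miR-29a-3p and miR-29c-3p it was 0.82 (Spearman 0.63), with 0.97 in QDG, 0.15 in SHR and 0.79 in WKY. For miR-29b-3p and miR-29c-3p it was 0.81 (Spearman 0.56), with 0.86 in QDG, -0.03 in SHR and 0.92 in WKY. Without the 2 libraries farthest from the median the r was 0.76 for miR-29a-3p with miR-29b-3p, 0.52 for miR-29a-3p with miR-29c-3p and 0.48 for miR-29b-3p with miR-29c-3p, so both relations of miR-29c-3p rest in large part on 2 libraries. miR-29c-3p and its own passenger, which come from a single hairpin, had 0.23 over the 18 libraries. By group the value was -0.45 in QDG, -0.17 in SHR and 0.83 in WKY. Points in such a correlation share the scaling of their library, and the values are descriptions.

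The miRNAs most like each guide in these deviations, among 243 others with a mean of at least 10 RPM, were miR-361-5p (r = 0.91), miR-181c-5p (0.90), miR-339-5p (0.88), miR-107-3p (0.87) and miR-126a-5p (0.85) for miR-29a-3p. For miR-29b-3p they were miR-208a-3p (0.94), a heart muscle miRNA from a myosin gene, miR-181c-5p (0.93), miR-107-3p (0.87), miR-339-5p (0.86) and miR-16-5p (0.85). For miR-29c-3p they were miR-194-5p (0.92), miR-106b-5p (0.91), miR-151-5p (0.87), miR-378a-5p (0.87) and miR-339-5p (0.85). miR-339-5p was in all 3 lists. Over the 18 libraries without centring, miR-30b-5p was among the 5 most alike for every guide, with r of 0.79 for miR-29a-3p, 0.91 for miR-29b-3p and 0.88 for miR-29c-3p.

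miR-29b-3p was set beside other miRNAs reported to act on cardiac fibrosis. Of 21 tested miRNAs other than miR-29 that are held to restrain it, 5 fell in SHR against WKY, namely miR-30a-5p (-0.20), miR-30b-5p (-0.30), miR-30d-5p (-0.20) and miR-30e-5p (-0.28), of a family known to restrain connective tissue growth factor, and miR-26b-5p (-0.30), with limma adjusted p of 0.00981 to 0.032. Over all 410 miRNAs 15.1% were called lower and 8.05% higher, so the 5 falls and 2 rises in 21 do not set this list apart. The falls depended on the scaling, with 3, 2 and 0 of them left under TMM, RLE and upper quartile scaling, and with the libraries, with 8 falls without WKY replicate 1. miR-1-3p (0.74) and miR-378a-3p (0.45) rose, the first sharing nearly all its letters with miR-1b, so its reads are uncertain, and miR-24-3p joined them under TMM, RLE and upper quartile scaling and without the 10 most abundant miRNAs in the scaling. The list's median log2 fold change was -0.15, beside -0.07 over all 410.

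Of 11 tested miRNAs held to promote fibrosis, 4 rose in SHR against WKY and 0 fell, beside 8.05% called higher and 15.1% called lower over all 410. Both lists were chosen with earlier results of these data known, so the counts are descriptions. miR-34a-5p averaged 236 ± 23 RPM in SHR and 117 ± 15 RPM in WKY, and its log2 fold change was 1.02 (limma adjusted p = 1.09e-08). miR-21-5p, abundant in stressed cardiac fibroblasts, had 23706 ± 6058 RPM in SHR and 17299 ± 980.3 RPM in WKY, with a log2 fold change of 0.42 (limma adjusted p = 0.00513). miR-155-5p of leukocytes (0.48) and miR-132-3p (0.70) also rose, and all 4 rises stood under each of 5 other scalings and without WKY replicate 1, SHR replicate 5 or QDG replicate 4. The median was 0.46, and 0.29 without both WKY replicate 1 and SHR replicate 5. The absence of falls depended on the libraries. Without WKY replicate 1, miR-208a-3p was called lower. With WKY replicate 1, SHR replicate 5 and QDG replicate 4 all left out, miR-208a-3p and miR-503-5p were called lower. In QDG against SHR none of either list was called by limma, with medians of 0.03 for the restraining and -0.07 for the promoting list. In QDG against WKY the same 4 promoting miRNAs rose and miR-503-5p fell (-0.36, not called under upper quartile scaling or without QDG replicate 4), beside 7.32% called higher and 10.5% called lower over all 410. Without WKY replicate 1 miR-155-5p was no longer called. Of the restraining list miR-1-3p and miR-378a-3p rose and 0 fell, against 1 fall under TMM and under RLE scaling and 2 without the 10 most abundant miRNAs in the scaling, and 3 without WKY replicate 1.

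Cell type markers were read beside the miR-29 values. The 4 fibroblast and stromal miRNAs summed to 34754 to 39095 RPM in QDG, 30529 to 52244 RPM in SHR and 27462 to 32170.1 RPM in WKY, with 1 of 4, miR-21-5p, called higher in each comparison with WKY. All 6 QDG sums lay above all WKY sums, and the SHR sums overlapped both. miR-21-5p made up most of the sum, with means of 23380 RPM in QDG and 17299 RPM in WKY. In QDG against WKY miR-199a-3p had a log2 fold change of 0.01, miR-199a-5p 0.14 and miR-214-3p 0.07, none called. Of all 410 miRNAs, 3.9% lay fully above WKY in QDG. Markers of smooth muscle (0 of 2 called), endothelium (0 of 2), red blood cells (0 of 4), liver (0 of 1), neurons (0 of 2) and skeletal muscle (0 of 1) overlapped between groups in their sums. Over all 410 miRNAs 8.05% were called higher in SHR against WKY and 7.32% in QDG against WKY, and with lists this short nothing is read from the counts. Of 5 leukocyte markers, 1 rose in SHR against WKY, miR-155-5p, and 2 in QDG against WKY, miR-155-5p and miR-142-3p. In SHR and QDG against WKY, miR-150-5p had log2 fold changes of -0.24 and -0.27, miR-142-5p -0.13 and 0.01, and miR-223-3p 0.22 and 0.09, none called. The leukocyte sums overlapped between groups. Of 6 heart muscle miRNAs, miR-1-3p, whose reads are uncertain, and miR-208b-3p rose in each comparison with WKY. The other 4 had log2 fold changes below 0 in both comparisons, and none of them was called. The median of this list was -0.06 in SHR against WKY and -0.05 in QDG against WKY, beside -0.07 and -0.06 over all 410. The sum of the 6 overlapped between groups. No marker list had a member at 0 in all libraries. The part of these cell types in the miR-29b-3p result was not tested.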

How the data were processed

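Small RNA of rat heart was profiled in 18 libraries, 6 per group by title. Per the labels' protocols, 1 µg of total RNA entered the NEBNext small RNA kit. FastQC, TopHat2 and limma appear in the submitters' processing notes, without versions or roles. Build, annotation and treatment of multiply mapped reads: not given in the sources used here. The deposited signal is a normalized read count per mature miRNA ("NormRC", per the file headers), which the authors appear to have scaled to 1000000 reads of a library-specific divisor. Whole reads came back for all 10782 of 10782 values to within 0.01. Values sum to more than 1000000 per library, since reads over all miRNAs exceed the divisor.

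The filter kept miRNAs reaching 1 RPM in 6 or more libraries (410 of 599, all 6 members). limma 3.58.1 (R 4.3.3) was fitted to log2(RPM + 1) of all 18 libraries, with variance trend and robust moderation and no covariate. Fold changes are therefore understated for scarce miRNAs. p-values were adjusted by Benjamini-Hochberg over all 410, with a threshold of 0.05. Arm ratios, log2(3p + 1) minus log2(5p + 1), were fitted alike over 126 hairpins. Ratios between guides and sums are described without a test, apart from the fit relative to miR-29a-3p. The fits were also run on simulated counts with known changes and a common dispersion. These held no outlying library, so they do not bear on the results that depend on single libraries. Alternatives were 5 other scalings, pseudocounts, filters, fits on 2 groups, a replicate block, edgeR 4.0.16, DESeq2 1.42.0, limma-voom and leaving out libraries. Named are the 6 members, called members of the fibrosis lists, and the 5 miRNAs most like each guide. Members and lists were chosen with earlier results of these data known. Replicate numbers name libraries and are not stated to pair them. Intervals are limma's at 95%.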

Additional observations from a re-analysis of the deposited data

Results flagged for a closer look

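In QDG replicate 4, miR-29a-3p stood at 10399.6 RPM, far below the nearest QDG library at 13805 RPM, and the sum of the 6 miR-29 strands at 10998 RPM, against 14542 RPM in the nearest. The gap took up 0.678 and 0.676 of the group's range, above Dixon's 95% critical value for 6 libraries. The sum consists almost wholly of miR-29a-3p, so both are a single observation. Of 39 groups of values checked, 2 were picked out, and chance picks about 1 in 20. The same library had 335 RPM of miR-29b-3p and 119 RPM of miR-29c-3p, the lowest values of all 18 libraries, and 116 RPM of miR-29c-5p, at the upper end of its group. The cause was not tested.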

How the results depend on the processing

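The lower miR-29b-3p against WKY kept its call in 35 of 35 alternatives for SHR and 35 of 35 for QDG. These include 18 fits without a single library. Where that library belonged to the group not compared, the fold change stayed as it was and only the estimated spread could change. The count of members called in SHR against WKY, 2, became 1 under RLE and upper quartile scaling, scaling without the 10 most abundant miRNAs or to the total over all listed miRNAs, no filter, a fit of only the 2 groups, DESeq2, and relative to miR-29a-3p. It was 4 with WKY replicate 1, SHR replicate 5 and QDG replicate 4 all left out and 1 to 3 without single libraries. In QDG against WKY the count, 1, became 2 under TMM, RLE and upper quartile scaling, edgeR, DESeq2, limma-voom, relative to miR-29a-3p, and without WKY replicate 1 and SHR replicate 5 or without all 3, and was 1 to 2 without single libraries. The second call was a rise of miR-29a-5p in 8 of these alternatives, a fall of miR-29c-3p in 2 and a fall of miR-29c-5p in 1. In QDG against SHR the count was 0 throughout. Arm ratios called in QDG against WKY, 0, became 1 under the stricter filter of 10 RPM. Over all hairpins, 1 arm ratio was called in SHR against WKY and 1 in QDG against WKY, but 13 and 9 with a pseudocount of 5, 9 and 4 without a filter, and 1 and 2 under the stricter filter. Over all miRNAs, SHR against WKY gave 95 calls and 61 relative to miR-29a-3p. Scaling to the total, the fit relative to miR-29a-3p and the joint omissions were chosen after seeing the data. The causes were not tested.

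Signs turned only in values that were not called. Under upper quartile scaling miR-29a-3p had 0.0229 in SHR against WKY and 0.0067 in QDG against WKY. In QDG against SHR, miR-29b-3p had -0.0088 (TMM), -0.0168 (RLE), -0.0362 (without the 10 most abundant), -0.012 (total), -0.0043 (edgeR), -0.0132 (DESeq2) and -0.0084 (limma-voom). Leaving out single libraries gave -0.0289 to 0.0902 for it, -0.0565 to 0.062 for miR-29a-3p, -0.0042 to 0.15 for miR-29b-5p and -0.078 to 0.0604 for miR-29c-3p. The 3p to 5p ratio then ran from -0.11 to 0.0336 for miR-29b and -0.20 to 0.0085 for miR-29c, and for miR-29c in QDG against WKY from -0.12 to 0.0849. With the 3 libraries all left out, QDG against SHR gave 0.0647 for miR-29a-3p, 0.0746 for miR-29c-3p and 0.0522 for the miR-29c ratio, whose value was 0.0507 in QDG against WKY. That ratio was -0.0015 in SHR against WKY without WKY replicate 1 and SHR replicate 5, and the same without all 3.

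The replicate numbers showed no pairing, since same-numbered libraries correlated at -0.17 to 0.23 in SHR against WKY, -0.13 to 0.12 in QDG against SHR and 0.0 to 0.20 in QDG against WKY, and 0, 0 and 1 of 6 numbers had their own number as best partner. With a replicate block the members called were 2, 0 and 1, and 0 arm ratios, as without it. Depth limits miR-29a-5p and miR-29b-5p most.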
